A study of Mus musculus with 12 samples.

Results

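Binding of USF2, an E-box transcription factor with a leucine zipper, was mapped by ChIP-seq in wild-type mouse embryonic fibroblasts (MEFs) kept in normal culture or deprived of glucose, with 2 libraries per condition. Neither group carries a Usf2 deletion, and the labels give no length of starvation and do not say whether the 2 libraries of a condition came from separate cultures. Peak lists cannot be used to check the fibroblast identity of the cells. Described here are the regions called in normal culture alone and lying away from gene ends, whether inside a gene or outside. Peaks of the 4 lists that overlapped by at least 1 bp were merged into 3804 regions, and 760 of them (20.0%) had a peak in both normal lists and in neither starved list. Of these normal-only regions, 503 had their summit more than 5000 bp from both ends of every RefSeq protein-coding gene and are called distal below, and the other 257 are called proximal. The distal regions were thus chosen by their calls and their distance, so their enrichment in the normal lists and their absence from the starved lists are descriptions. Normal-only regions made up 19.5% of all 2581 regions at this distance.

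USF2 pairs with itself or with its relative USF1 and binds the E-box, the palindrome CACGTG, and it is best known from sites close to gene starts, among them those of lysosomal genes. Binding far from gene ends may fall in enhancers, at unannotated starts or in places without a known role, and a peak by itself does not tell these apart. Where a list holds no peak, the authors' caller made no call, which is no measurement of absent binding.

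A gene span has 2 ends, but a gene can have further starts inside it, and genes without a protein product have starts as well. The letters of annotated starts (250 bases before to 50 after, RefSeq, GRCm38.p6) were at hand for 32851 windows, and 7 distal regions had their summit in such a window. Of these, 5 held CACGTG (71.4%, 95% exact interval 29.0 to 96.3), against 7.15% of all windows. Over all merged regions with a summit in a window, the distal ones included, the share was 69.8% (323 of 463, 65.4 to 73.9). In proximal normal-only regions it was 39% (39 of 100). The interval from 7 windows covers both values, so it cannot tell which of them the distal share is nearer to. Most of the 7 had more than 5 reads at the summit in both normal lists. Of all distal regions, 80.7% had 5 or fewer in the smaller list, so the 7 do not stand for the rest. The sequences of the 5 are shown because they place the binding motif next to the summit. Each is printed 5′ to 3′ along the strand of its gene, with the E-box in capitals.
Tmeff2, plus strand, chr1:50927414-50927522: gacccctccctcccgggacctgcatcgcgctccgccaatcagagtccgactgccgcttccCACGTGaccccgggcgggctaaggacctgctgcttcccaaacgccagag
1700113A16Rik, minus strand, chr3:88177736-88177850: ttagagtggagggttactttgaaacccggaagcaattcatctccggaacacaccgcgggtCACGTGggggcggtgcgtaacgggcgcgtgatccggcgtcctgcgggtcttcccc
Gm26797, minus strand, chr9:122310887-122311012: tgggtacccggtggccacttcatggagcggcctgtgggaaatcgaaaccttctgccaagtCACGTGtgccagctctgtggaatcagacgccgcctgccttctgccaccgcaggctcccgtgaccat
Gm36495, minus strand, chr12:16850891-16851016: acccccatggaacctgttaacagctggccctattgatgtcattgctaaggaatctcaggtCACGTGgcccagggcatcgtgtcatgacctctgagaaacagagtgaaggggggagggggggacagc
Lncpint, minus strand, chr6:31218458-31218583: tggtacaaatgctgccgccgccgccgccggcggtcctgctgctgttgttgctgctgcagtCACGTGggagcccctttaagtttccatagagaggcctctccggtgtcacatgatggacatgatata

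The E-box lay 5 bp from the summit at Tmeff2, which encodes a transmembrane protein with follistatin-like and EGF-like domains. The distance was 11 bp at Gm36495 and at Lncpint, a long non-coding RNA known as a p53 target, 19 bp at 1700113A16Rik and 35 bp at Gm26797. These distances were taken from the middle of the motif, which in all 5 lay 3 to 47 bp upstream of the annotated start. At 1700113A16Rik the last base of the motif was the start itself. The 300-base window limits how far apart summit, motif and start can be. In the order normal 1 and normal 2, fold enrichment was 8.95 and 6.13 at Gm26797 on 14 and 9 reads, 6.12 and 5.36 at Lncpint on 7 and 6 reads, and 5.49 in both lists at Gm36495 on 11 reads each. The values at Tmeff2 and 1700113A16Rik, which were higher in pileup, follow with the strongest regions. The longer form GTCACGTG, searched on both strands after the windows had been seen, was in 5 of the 7 windows, in 252 of the 463 windows of all merged regions (54.4%) and in 2.25% of all windows. The other 2 regions, at starts of Stard13, which encodes a START domain protein, and of the non-coding RNA 4930449E01Rik, had no CACGTG in their windows. In the same order of lists, the region at Stard13 had 8 and 10 reads and that at 4930449E01Rik had 5 and 5. Where other regions had their summit in a window, CACGTG was present in 39 of 100 proximal normal-only regions (39%, 95% exact interval 29.4 to 49.3) and in 135 of 147 regions within 5000 bp of a gene end called in all 4 lists (91.8%, 86.2 to 95.7). It was also present in 6 of 6 distal regions of all 4 lists and in 2 of 2 distal starved-only regions. The interval of the 7 distal windows overlapped those of the larger sets, and the differences were not tested. For the remaining 496 distal regions no letters were used here, so the share with an E-box is not known for them.

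Most distal regions had few reads and low fold enrichment. Fold enrichment, as the authors' peak caller gives it, is the read pileup at the summit plus 1 over the local background plus 1 within a library, so at pileups of a few reads the added 1 lowers it strongly. It ranged from 3.39 to 12.4 in normal replicate 1 (median 5.28) and from 3.39 to 13.1 in normal replicate 2 (median 5.31). The smaller of the 2 values was below 6 in 446 regions (88.7%), from 6 to below 8 in 50 and at least 8 in 7. In the order of −log10 q, the distal regions had a median rank of 904 of 1645 peaks in replicate 1 and of 1274 of 2124 in replicate 2, with best ranks of 105 and 97 and worst ranks of 1634 and 2109. The plot of fold enrichment in the 2 normal lists shows them packed at the low end, with a short tail, while the proximal regions reach further up.

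**Figure D1:**
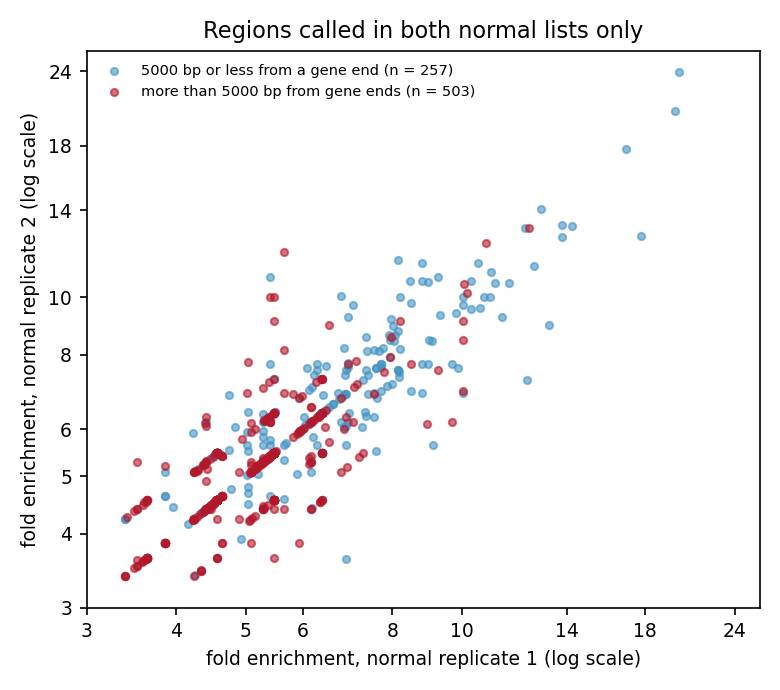
Fold enrichment in normal replicate 1 (x axis) and normal replicate 2 (y axis), both on log scales, with 1 point per normal-only region. The 503 distal regions (red) reach 12.4 and 13.1, and the 257 proximal regions (blue) reach 20.1 and 23.9.

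The pileup behind these values, recovered from fold enrichment and p-value, was small. Its median was 5 reads in both normal lists, with quartiles of 4 and 5 in replicate 1 and of 4 and 6 in replicate 2. Taking the smaller pileup of the 2 lists, 406 regions (80.7%, 95% exact interval 77.0 to 84.1) rested on 3 to 5 reads, 81 on 6 to 9 and 16 (3.18%) on 10 or more. Among proximal normal-only regions 34.6% rested on 5 reads or fewer and 36.2% on 10 or more, with a median of 8. The 125 starved-only regions at the same distance had a median of 5 reads in their own lists, 80.8% of them with 5 or fewer, whereas the 18 distal regions of all 4 lists had a median of 13 reads in the normal lists and none with 5 or fewer. The local background was at the lowest value of the list in both normal lists for 204 distal regions (40.6%). The lowest pileup was 3 reads in each of the 4 lists, so by the calls themselves no distal region could lie under the lowest starved pileup. The lowest background was 0.0979 reads in both normal lists, and 0.131 and 0.133 reads in the starved lists. Divided by the minimum peak width of each list, it was 644.0 and 644.1 reads per Mb for the normal libraries. For the starved libraries it was 428.4 and 434.1. The division takes the minimum width as the length over which reads are counted, which the sources do not state, and the direction depends on it. The part of these background differences, and of the wider starved peaks (at least 306 bp against 152 bp), in the missing starved calls was not tested.

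**Figure D2:**
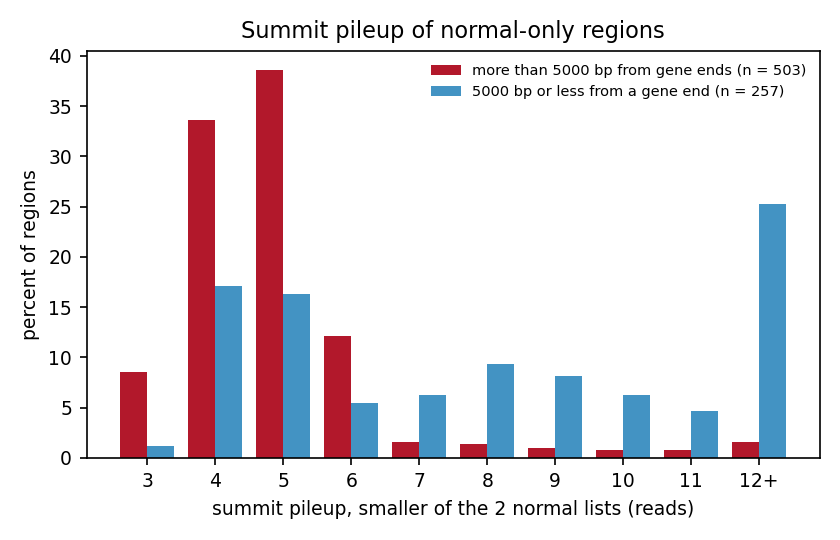
Percent of regions (y axis) by summit pileup in reads, the smaller of the 2 normal lists (x axis; 12+ holds 12 or more), for distal (red, 503) and proximal (blue, 257) normal-only regions. The bars of the distal regions peak at 5 reads (38.6%), and the tallest proximal bar is that of 12 or more (25.3%).

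Many distal regions had the same outline in both normal lists. An identical start or end coordinate was found in 304 of 503 (60.4%, 95% exact interval 56.0 to 64.7). Both coordinates were identical in 216 (42.9%), and start, end, summit and pileup were all identical in 111 (22.1%). Over all 1052 regions with a peak in both normal lists, the distal ones included, an edge was identical in 471 (44.8%, 41.7 to 47.8). Whether the 2 normal libraries share reads cannot be told from peak lists and was not tested, so a call in both lists may not be 2 independent observations. The peak had the minimum width of 152 bp in 322 regions in replicate 1 and in 317 in replicate 2, and in both lists in 273. The summits of the 2 lists coincided in 217 regions (43.1%), lay at most 10 bp apart in 312 (62.0%) and more than 50 bp apart in 46, with a largest gap of 392 bp. In proximal normal-only regions an identical edge was less frequent, with 105 of 257 (40.9%, 34.8 to 47.1; odds ratio of distal against proximal 2.21, 95% interval 1.61 to 3.04, two-sided Fisher exact test, p = 3.56e-07). This p describes regions of 1 pair of libraries and not conditions.

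At like pileup the shares of distal and proximal regions lay close together. With a smaller pileup of 3 or 4 reads, an edge was identical in 62.7% of 212 distal and 61.7% of 47 proximal regions (odds ratio 1.04, 95% interval 0.511 to 2.09). With 5 reads the shares were 62.4% of 194 and 57.1% of 42 (odds ratio 1.24, 0.592 to 2.57), and with 6 or 7 reads 62.3% of 69 and 56.7% of 30 (odds ratio 1.26, 0.479 to 3.29). With 8 or more reads they were 25% of 28 and 25.4% of 138 (odds ratio 0.981, 0.324 to 2.66). None of the 4 ranges passed the test (two-sided Fisher exact test, p adjusted over the 4 ranges = 1 for each), which does not show equal shares: the intervals of the odds ratio together reach from 0.324 to 3.29. The starved pair had an identical edge in 41.6% of its 125 distal starved-only regions (32.9 to 50.8).

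**Figure D3:**
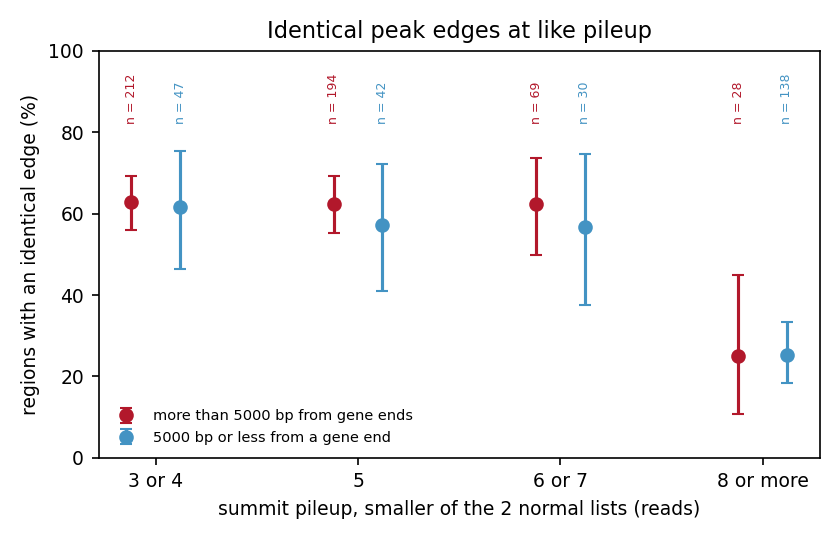
Percent of normal-only regions in which the peaks of the 2 normal lists share a start or an end (y axis), by the smaller summit pileup in reads (x axis). Points are shares with 95% exact intervals for distal (red) and proximal (blue) regions; both lie between 56.7% and 62.7% up to 7 reads and near 25% from 8 reads on.

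The few strong distal regions were led by a region on chromosome 8 (107268644 to 107268895), 24659 bp from the nearest gene end, that of Nfat5, the transcription factor of the osmotic stress response. Its fold enrichment was 12.4 and 13.1 on 17 and 18 reads in the order normal 1 and normal 2, and neither edge was identical. It was followed by a region on chromosome 1 (57223534 to 57223703) with 10.8 and 12.3 on 13 and 15 reads, which lay 154006 bp from 1700066M21Rik and 8594 bp from an end of the non-coding RNA BC055402. A region on chromosome 8 (35707974 to 35708214) had 10.2 in both lists on 11 reads each and lay 83 bp from an end of the non-coding RNA 1700015I17Rik. The start inside Tmeff2 shown above (region at 50927393 to 50927578 on chromosome 1) had 10.1 and 10.5 on 18 and 22 reads. Of these 4 regions, the last 2 thus lay at or next to an annotated start or end, and the region near Nfat5 was 5507 bp from an end of the pseudogene Rps18-ps3.

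The next 6 by smallest fold enrichment were weaker. Near Tlr5, the receptor of bacterial flagellin, the values were 10.02 and 9.11 on 10 and 9 reads (chromosome 1, 182983067 to 182983328). Near Zfp362, which encodes a zinc finger protein, they were 10.03 and 8.48 on 12 and 10 reads (chromosome 4, 128811469 to 128811674). This region counts as normal-only by a narrow margin: starved replicate 1 had a peak 2 bp away (fold enrichment 4.92, 10 reads) and starved replicate 2 one 12 bp away (5.63, 9 reads). Near Gcnt2, an enzyme that branches poly-N-acetyllactosamine chains, the values were 8.20 and 9.11 on 8 and 9 reads, and both edges were identical. Inside Nfib, a nuclear factor I transcription factor, they were 7.97 and 8.58 on 12 and 13 reads (chromosome 4, 82447353 to 82447535; 59335 bp from a gene end). Near the lens crystallin gene Cryba1 both were 7.93 on 8 reads each, with 1 identical edge. Inside Ift81, a component of transport along cilia, they were 8.48 and 7.71 on 10 and 9 reads. Of these 10 regions, 2 had an identical edge, against 304 of 503. All 10 had 8 or more reads in both lists, and of the 28 distal regions with such pileups 25% had an identical edge.

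Of the 16 distal regions with 10 or more reads in both lists, 14 had no identical edge. The 5 of them with the highest pileup included, beside the regions near Nfat5 and in Tmeff2, one within the non-coding RNA Pvt1 (chromosome 15, 62079323 to 62079490; 89043 bp from Myc, the gene of another E-box binding factor). It had 25 and 27 reads, the most among distal regions, but a fold enrichment of only 7.08 and 7.06, at a local background of 2.67 and 2.97 reads, the highest values among distal regions. A region 14895 bp from Zfp395 had 21 and 22 reads and fold enrichments of 5.99 and 6.82 at a background of 2.67 and 2.37 reads (chromosome 14, 65343714 to 65343889). One 168 bp from an end of the non-coding RNA G930009F23Rik, 32090 bp from Azin1, a regulator of polyamine synthesis, had 15 and 14 reads (6.44 and 6.04; chromosome 15, 38455222 to 38455401). The region at the start of 1700113A16Rik, 5678 bp from Mef2d, a MADS-box transcription factor, had 23 and 22 reads (7.80 and 7.47) and 1 identical edge.

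The distance limit used protein-coding genes alone, so some distal regions lay close to other genes. An end of a gene without a protein product lay within 1000 bp of 24 distal regions (4.77%), of a long non-coding RNA in 22 and of a pseudogene in 2, and within 5000 bp of 85 (16.9%). By smallest fold enrichment the first of the 24 were those at 1700015I17Rik, at Gm33628 (9.25 and 7.53 on 11 reads each; chromosome 12, 108758012 to 108758243; 34837 bp from Yy1), at 1700113A16Rik, at Gm38514 (6.38 in both lists on 6 reads each) and at the pseudogene Gm13477 inside Gtdc1 (6.17 in both lists on 7 reads each). No distal region overlapped any of 1005 RefSeq miRNA hairpins. The count for other regions was not computed, so this says nothing particular about the distal ones.

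By position, 271 distal regions (53.9%, 95% exact interval 49.4 to 58.3) had their summit inside a protein-coding gene, 53 outside those but inside another annotated gene and 179 (35.6%) outside all annotated genes. In the distal starved-only regions the share inside protein-coding genes was 48.8% (39.8 to 57.9), an overlapping interval. The distance from the nearest protein-coding gene end ran from 5032 to 1833917 bp, with a median of 38991 bp and quartiles of 15287 and 111272 bp. It exceeded 10000 bp in 423 regions. Just inside the limit were regions in Hdhd2 (5032 bp; 5.31 and 6.21), in Rbfox3, a neuronal splicing factor gene (5109 bp; 4.55 in both lists), and in Prcd (5124 bp; 5.24 in both lists). Just outside it were regions in Zdhhc23 (4918 bp; 5.47 and 5.46), in Scap, the escort protein of the sterol-sensing SREBP factors (4877 bp; 4.55 and 5.46), and near Zbtb40 (4819 bp; 5.47 and 5.46). The 3 regions farthest from any protein-coding gene were nearest to the protocadherin genes Pcdh7 and Pcdh10 and to Celf4, at distances of 1833917, 1704367 and 1625662 bp. They had 5 and 4, 5 and 5, and 5 and 5 reads, and both edges identical in each.

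**Figure D4:**
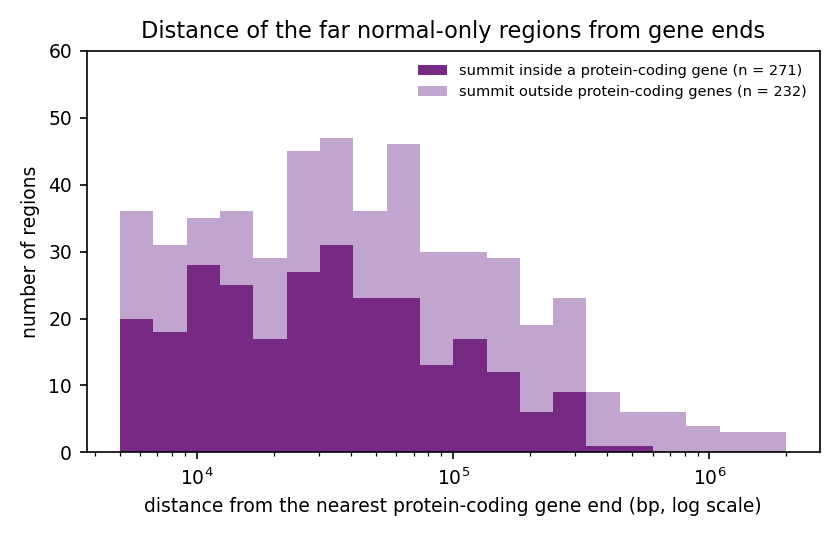
Number of distal normal-only regions (y axis) by distance of the summit from the nearest end of a protein-coding gene in bp (x axis, log scale), stacked by whether the summit lies inside (dark, 271) or outside (light, 232) a protein-coding gene. The distances spread from 5032 to 1833917 bp around a median of 38991 bp.

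The 271 regions inside protein-coding genes fell into 257 genes, or 1.17% of 21887. The genes were long, with a median span of 110.7 kb against 33.1 kb for the 13961 protein-coding genes long enough to hold a summit this far from both ends. Longer genes have more positions this far from their ends. The spans of genes holding distal regions of other call patterns were not compared. Among 13 gene lists, none of the 58 genes of lysosomal membrane and trafficking, the 50 lysosomal hydrolases and cofactors and the 17 vacuolar ATPase subunits held a distal region. Distal regions of any call pattern lay in 1, 2 and 1 genes of these lists. At the share of 1.17% over all protein-coding genes, lists of this size may hold none, and avoidance of these genes was not tested. Igf2r, the mannose 6-phosphate receptor that sorts lysosomal enzymes, was the nearest gene of 1 distal region. None of the 38 tissue genes of other cell types held a distal region, with the same limit of list size, although the gene of the basal keratin Krt5 was nearest to 1. In autophagy and mTORC1 it was 1 of 47 genes (2.13%), Sesn1, a sestrin that restrains mTORC1 (fold enrichment 5.28 and 7.05 on 5 and 7 reads; chromosome 10, 41849487 to 41849704).

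Of AMPK, glycolysis and glucose transport, 4 of 36 genes (11.1%) held a distal region, and for all protein-coding genes this share was 1.17%. That share also counts genes too short to hold a summit this far from both ends. Distal regions of any call pattern lay in 5 genes of the list and in 1122 of all 21887 protein-coding genes. The list was chosen with earlier results of these data known, so the counts are given without a test. Whether its genes differ from others in length or activity was not compared. Prkag2, a regulatory subunit of the energy sensor AMPK, had 5.08 in both lists on 5 reads each, with identical edges, summit and pileup (chromosome 5, 25012040 to 25012193). Hk1 and Hk2, the hexokinases that start glycolysis, differed in support, but not in the same direction by every measure. In the order normal 1 and normal 2, −log10 q was 2.84 and 4.50 at Hk1, and 3.41 and 1.85 at Hk2. The local background was 0.0979 reads in both lists at Hk1, and 0.593 and 0.594 at Hk2. Hk1 had 4.55 and 5.46 on 4 and 5 reads, with summits 57 bp apart. Hk2 had 5.65 and 4.39 on 8 and 6 reads, with summits 3 bp apart (chromosome 6, 82740307 to 82740540), and neither gene's region had an identical edge. Gpi1, the glucose phosphate isomerase, had 4.55 in both lists on 4 reads each, identical in outline, summit and pileup.

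The remaining lists are likewise given by counts without a test, beside 1.17% of all protein-coding genes. In the order below, distal regions of any call pattern lay in 3, 2, 6, 9, 3, 10 and 8 genes of these lists. The circadian clock had 2 of 23 (8.70%), among them the nuclear receptor gene Rora (4.55 in both lists on 4 reads). Of basic helix-loop-helix leucine zipper factors 1 of 20 (5%) held one, Mxi1, a partner of MAX that opposes MYC (5.98 in both lists on 6 reads; chromosome 19, 53319013 to 53319233), and Myc and Mycn were the nearest genes of 1 region each. Extracellular matrix genes had 2 of 60 (3.33%), Col4a2, a basement membrane collagen (5.47 and 5.46 on 5 reads), and Fbln1, a matrix glycoprotein (5.26 in both lists on 5 reads). Adhesion and actin cytoskeleton had 1 of 58 (1.72%), Vcl, which encodes the focal adhesion protein vinculin (6.46 in both lists on 7 reads, identical in outline, summit and pileup; chromosome 14, 20974346 to 20974497). TGF-beta, BMP, Hippo and Wnt signalling had 1 of 50 (2%), the co-receptor Tgfbr3 (5.93 in both lists on 6 reads). Growth factor receptors and kinases had 4 of 48 (8.33%), among them the kinase gene Map2k1 (5.47 and 5.46), the PDGF receptor gene Pdgfrb (5.28 and 5.37) and the protein kinase C gene Prkce (4.40 in both lists), each on 4 or 5 reads. Fibroblast transcription factors had 1 of 44 (2.27%), Nfib. Like that in Vcl, the regions in Rora, Map2k1 and Prkce were identical in outline, summit and pileup. Those in Col4a2, Fbln1 and Tgfbr3 had both edges identical, and those in Mxi1, Pdgfrb and Nfib had no identical edge. Of the regions named here from the gene lists, only that in Nfib had 10 or more reads in both lists.

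At the other end of the scale, the 5 weakest distal regions had a smaller pileup of 3 reads. They lay in Clhc1 (3.41 and 4.27), in Macroh2a1, the gene of a histone H2A variant (3.39 in both lists), in Edil3 (4.24 and 3.39), near Olig3 and near Gm725 (3.39 in both lists for both). Altogether 43 distal regions rested on 3 reads in at least 1 list.

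Starved peaks that overlap a distal region were excluded by the rule, and few others were close by. The share for other regions or positions was not computed. A peak of a starved list lay within 10 kb of 12 distal regions (2.39%), and within 1000 bp of 2, the one near Zfp362 described above and one in Togaram2 (starved replicate 1, 250 bp away, 5.30 on 5 reads). The next closest were 4487 bp away from a region in Syne2, a nuclear envelope protein gene, and 5393 and 5986 bp away from regions nearest to Ermard and Haao, each a peak of 5 reads in starved replicate 2.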

How the data were processed

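USF2 ChIP-seq of wild-type MEFs gave 1 deposited narrowPeak list per library (2 normal, 2 starved); the other 8 of the 12 samples were not analysed here. Tools listed, per the submitters' processing notes, are deepTools 3.5.1, MACS2 2.2.7.1 and Bowtie2 2.5.1, with GRCm38 as build; parameters and any use of inputs as control are not given in the sources used here. The authors deposited fold enrichment (a ratio) with −log10 p and −log10 q per peak. Pileup and background were recovered as the whole number of reads whose Poisson tail matched the deposited −log10 p; all peaks matched within 0.001. Peaks were called per library, at 152 bp minimum width in the normal and 306 bp in the starved lists. The 8 peaks off the assembled chromosomes were left out. Genes, windows and miRNAs came from RefSeq (GRCm38.p6), without exons. The 95% exact (Clopper-Pearson) intervals hold counting error alone. Shares were compared by two-sided Fisher exact tests (SciPy 1.17.1, Python 3.11.15). Pileup recovery, merging into regions and the edge test were run on simulated data, and the other steps were not. The simulated pileups were made with the formula that the recovery inverts, so they do not test that formula. Tests over regions carry no replicate check of the conditions, and the 2 libraries may be technical repeats. The planned E-box test was not run for want of a genome sequence. Named regions are the 10 with the highest smallest fold enrichment, the 5 with the highest pileup without an identical edge, those inside genes of the lists (up to 4 per list, of which 2 are not reported here), those at the distance limit, the 3 farthest from genes, the 5 weakest, and up to 5 near starved peaks or other genes. Stard13, 4930449E01Rik, Gm26797, Gm36495 and Lncpint were named for their windows after their values were seen. The members and lists were chosen with earlier results of these data known.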

Additional observations from a re-analysis of the deposited data

How the results depend on the processing

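The number of distal normal-only regions (503) was 483 with a reciprocal overlap of 50%, 569 and 423 with limits of 2000 and 10000 bp, and 418 with all annotated genes. It was 199 without identical peak edges, 53 with −log10 q of at least 5 and 16 where both pileups reached 10 reads. Leaving out 1 list gave between 503 (without starved replicate 1) and 1304 (without normal replicate 1), with 956 without normal replicate 2, since 1 list then decides for its condition. The median of the smaller pileup (5 reads) was 6 with −log10 q of at least 5 and 11.5 with at least 10 reads, and 5 under the other settings. The odds ratio of an identical edge, distal against proximal (2.21), lay between 1.84 and 3.75 under the other planned settings, except that it was 0.437 with at least 10 reads (2 of 16 against 26 of 105; Fisher exact test, p = 0.356); the cause was not tested. Within ranges of like pileup, added after the data were seen, it was 1.04, 1.24, 1.26 and 0.981. Without 1 starved list it was 2.27 to 2.40. The planned E-box comparison over all regions, with its other window and motif, was not run because no genome sequence was used here. No paired analysis was possible because calls of 4 lists, not a fitted value per sample, define the regions.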

Other observations

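The distal regions were spread over 20 chromosomes, with 40 each on chromosomes 9 and 10, 11 on chromosome 7 and 3 on X. They rarely lay together: 2 pairs were within 10 kb of each other, both on chromosome 17. In one pair the summits were 4052 bp apart (nearest gene Ermard), with 5 reads in both lists at each. In the other they were 6190 bp apart, with 7 and 7 reads at the region nearest to Tmem247 (86931690 to 86931857) and 11 and 12 reads at the region nearest to Atp6v1e2, a vacuolar ATPase subunit gene that was not in the list above (86937859 to 86938050; fold enrichment 7.53 and 6.88). The 14 genes that held 2 distal regions each were Anks1b, Ano4, Arhgap24, Arhgap39, Atp2b2, Cep164, Grip1, Kirrel3, Phactr1, Rbfox3, Slc35f3, Syne2, Trak1 and Zfp469. They span from 61.7 kb (Cep164) to 1100 kb (Anks1b), and no theme was tested among them. Of their regions the one in Trak1, an adaptor for mitochondrial transport, had 10 and 12 reads (chromosome 9, 121314119 to 121314363). Further distal regions with 10 or more reads in both lists and no identical edge lay in Tacc2 (10 and 10 reads) and in Ssh1, a phosphatase that activates the actin-severing protein cofilin (10 and 16 reads). These genes were named after their values were seen.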
